A study of Mus musculus with 24 samples.

Results

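The genes described here are 42 genes of the type I interferon response in mouse salivary gland organoids, taken by symbol from count files of 24 RNA libraries that each list 47643 genes. All 42 symbols were found in every file, and 41 passed the filter on low counts. The exception was Oas1a, an oligoadenylate synthetase with 77 counts over the 24 libraries, which entered the levels but no test. Organoids are small 3-dimensional cultures grown from tissue cells, here salivary gland stem/progenitor cells of C57BL/6 mice. The design crossed 3 factors. Glands had received irradiation (IR) or a sham procedure, cells were taken 14 or 90 days later, and organoids were collected at passage 1 or passage 2 of the culture. Each of the 8 groups held 3 libraries, and all were grown in Matrigel with EGF, FGF2, insulin, dexamethasone and Y-27632, a kinase inhibitor, in the medium. No interferon was among the additions the labels name. The labels name no radiation dose and no age or sex of the mice. Whether replicates are separate mice or cultures is not stated, so p-values reflect library-to-library spread that could be technical. A passage 2 organoid is grown from passage 1 cells, so the passages are not independent.

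Type I interferons are secreted proteins that a cell releases when its sensors meet viral or misplaced RNA or DNA. They bind the receptor pair IFNAR1 and IFNAR2, whose kinases JAK1 and TYK2 activate STAT2. It works with IRF9 in the complex ISGF3, which binds a short DNA element, the interferon-stimulated response element, in front of a shared set of genes. Type III interferons use another receptor and drive much the same genes, chiefly in epithelia, so these genes do not tell the ligands apart. The 42 genes cover the signalling step itself, the sensors, the proteins that bind or degrade RNA, the enzymes that attach ISG15, ubiquitin or ADP-ribose, the membrane and nucleotide effectors, and other induced genes.

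Upstream sequences of 7 members are shown because they hold, or lack, the response element core. They range from genes that followed the common library pattern closely (Isg15, Ifit1, Bst2) to some that followed it less (Ifit3b, Cxcl10, Helz2). Each is the 250 bases before the RefSeq transcript start, read 5′ to 3′ on the gene's strand in build GRCm38.p6, and capitals mark each match to GAAANNGAAA or its reverse complement TTTCNNTTTC, overlapping matches included. The regions are chr4:156200819-156201068 (minus strand) for Isg15, chr19:34640639-34640888 (plus strand) for Ifit1, chr19:34583279-34583528 (plus strand) for Ifit3, chr19:34607707-34607956 (plus strand) for Ifit3b, chr8:71537473-71537722 (minus strand) for Bst2, chr5:92348890-92349139 (minus strand) for Cxcl10 and chr2:181242028-181242277 (minus strand) for Helz2.
Isg15: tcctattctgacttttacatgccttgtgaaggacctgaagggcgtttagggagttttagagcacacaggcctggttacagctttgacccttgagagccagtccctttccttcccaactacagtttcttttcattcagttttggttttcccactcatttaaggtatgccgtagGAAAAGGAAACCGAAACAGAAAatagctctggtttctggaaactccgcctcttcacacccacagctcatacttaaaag
Ifit1: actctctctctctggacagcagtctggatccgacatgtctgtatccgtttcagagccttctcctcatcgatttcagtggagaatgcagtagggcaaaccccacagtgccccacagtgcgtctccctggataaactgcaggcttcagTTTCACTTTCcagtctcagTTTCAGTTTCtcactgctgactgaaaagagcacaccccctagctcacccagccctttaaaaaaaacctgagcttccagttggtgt
Ifit3: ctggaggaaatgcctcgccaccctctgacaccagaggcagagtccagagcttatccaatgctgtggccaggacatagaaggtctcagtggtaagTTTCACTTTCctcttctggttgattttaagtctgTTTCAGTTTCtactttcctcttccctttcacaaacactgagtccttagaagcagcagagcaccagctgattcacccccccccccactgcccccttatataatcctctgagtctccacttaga
Ifit3b: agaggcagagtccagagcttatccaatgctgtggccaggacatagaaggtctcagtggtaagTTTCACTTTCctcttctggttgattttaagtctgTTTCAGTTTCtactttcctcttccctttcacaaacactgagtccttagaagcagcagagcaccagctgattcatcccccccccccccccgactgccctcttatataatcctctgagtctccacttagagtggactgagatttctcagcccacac
Bst2: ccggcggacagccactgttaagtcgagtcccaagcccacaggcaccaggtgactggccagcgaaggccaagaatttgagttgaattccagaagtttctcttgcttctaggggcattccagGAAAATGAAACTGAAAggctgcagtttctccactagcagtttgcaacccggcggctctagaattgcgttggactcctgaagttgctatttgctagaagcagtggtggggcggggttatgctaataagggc
Cxcl10: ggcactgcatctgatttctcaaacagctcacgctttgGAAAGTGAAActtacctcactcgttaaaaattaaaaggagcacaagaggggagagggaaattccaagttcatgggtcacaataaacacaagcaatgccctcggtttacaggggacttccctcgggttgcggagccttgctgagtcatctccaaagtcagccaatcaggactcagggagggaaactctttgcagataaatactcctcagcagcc
Helz2: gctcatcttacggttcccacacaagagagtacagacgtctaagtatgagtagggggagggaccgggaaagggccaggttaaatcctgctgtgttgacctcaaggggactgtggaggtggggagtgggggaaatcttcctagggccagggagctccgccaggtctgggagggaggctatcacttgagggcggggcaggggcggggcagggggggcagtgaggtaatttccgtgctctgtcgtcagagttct
Isg15 held 3 overlapping matches in 1 run of capitals, Ifit1, Ifit3, Ifit3b and Bst2 held 2 matches each, Cxcl10 held 1, and Helz2 held none. Ifit3 and Ifit3b are near-identical neighbours, and the stretch around their paired matches reads alike in both. In the RefSeq table of promoters (300 bases, from 250 before the start to 50 after it), 32 of the members had a window and 16 of these had at least 1 match. Counted by window, 17 of 36 member windows held a match (47.2%), against 1131 of 32851 windows of all genes (3.44%). Among members whose levels departed from the common pattern, Cxcl10 held 1 match and Ifit3b 2, while the windows of Ifi209, Helz2, Parp12 and Ifit2 held none of these letters. Ifi27 and Mx1, which also departed from it, had no window. Among those that followed it most closely, Ddx60 held 2 and Gbp3 held 2 in 1 of its windows, while Irf9 and Xaf1 held none. Oas2, the closest follower of those tested, had no window. A match describes these letters only, and binding was not measured.

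Libraries held 1151608 to 3189466 counts on genes, so that 1 CPM (count per 1000000, with TMM scaling) stands for 1.06 to 3.89 counts. Members held between 0.0305% and 0.463% of the counts of a library. Markers of salivary epithelium (Epcam, Cdh1 and keratins) summed to 3975 to 10549 CPM. Endothelial markers summed to at most 2.05 CPM and mesenchymal markers to at most 3.85 CPM. Of 17 leukocyte markers, 5 had no count in any library, among them Cd4, Cd8a, Nkg7 and Flt3, 15 had a median under 1 CPM, and the sum ran from 0.406 to 55.8 CPM. In sham of passage 1 the highest leukocyte sum of each group lay in the library with the highest members. At day 14 the sums were 8.78, 12.8 and 9.75 CPM, with 21, 42 and 3 of 42 members above their own median, and at day 90 they were 1.13, 21.5 and 10.9 CPM, with 0, 40 and 21. Ptprc, the general leukocyte marker, and Fcer1g had their maxima (1.16 and 2.91 CPM) in that day 14 library, and Tyrobp (1.76 CPM) in that day 90 library. They rest on 12, 21 and 14 counts over all libraries. Lyz2 and Cd68, with 321 and 104 counts, had their maxima (40.9 and 7.69 CPM) in IR library 1 of day 14 passage 1, as had Csf1r (1.92 CPM). Itgam had its maximum (1.89 CPM) in IR library 2 of that group. In IR of passage 1 the sums were 19.2 to 55.8 CPM at day 14 and 4.12 to 38.3 CPM at day 90, with 2 or 3 members above their median in each library. In passage 2 they were 0.406 to 7.30 CPM, with 0 to 42 members above. The part of leukocytes in the members' levels was not tested. The plasmacytoid dendritic cell marker Siglech, from the cells known for high interferon output, had 1 count in all 24 libraries. In bulk RNA, fewer cells that express a gene and less RNA per cell cannot be told apart.

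The members rose and fell together from library to library, and libraries of 1 group often stood far apart. For each member the median over the 24 libraries was taken, and the members above their own median were counted. In 10 libraries 40 or more of the 42 members were above it, in 11 libraries 3 or fewer were, and 3 libraries lay between with 21, 21 and 27. By treatment and passage, libraries with 40 or more numbered 2 of 6 in sham passage 1, 0 of 6 in IR passage 1, 5 of 6 in sham passage 2 and 3 of 6 in IR passage 2. The 3 groups whose libraries were alike were day 14 passage 1 IR (3, 2 and 2 members above), day 90 passage 1 IR (2, 2 and 3) and day 90 passage 2 sham (40, 41 and 41). The others were mixed. Day 14 passage 1 sham had 21, 42 and 3 members above, day 14 passage 2 sham 0, 41 and 41, day 14 passage 2 IR 3, 3 and 42, day 90 passage 1 sham 0, 40 and 21, and day 90 passage 2 IR 27, 42 and 40. The mean log2 CPM over the members ran from 2.08 in the day 14 passage 2 sham library 1 to 5.86 in the day 90 passage 2 sham library 3. Thus the libraries of day 14 passage 2 sham alone, at 2.08, 5.65 and 5.47, spanned almost that whole range.

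**Figure D1:**
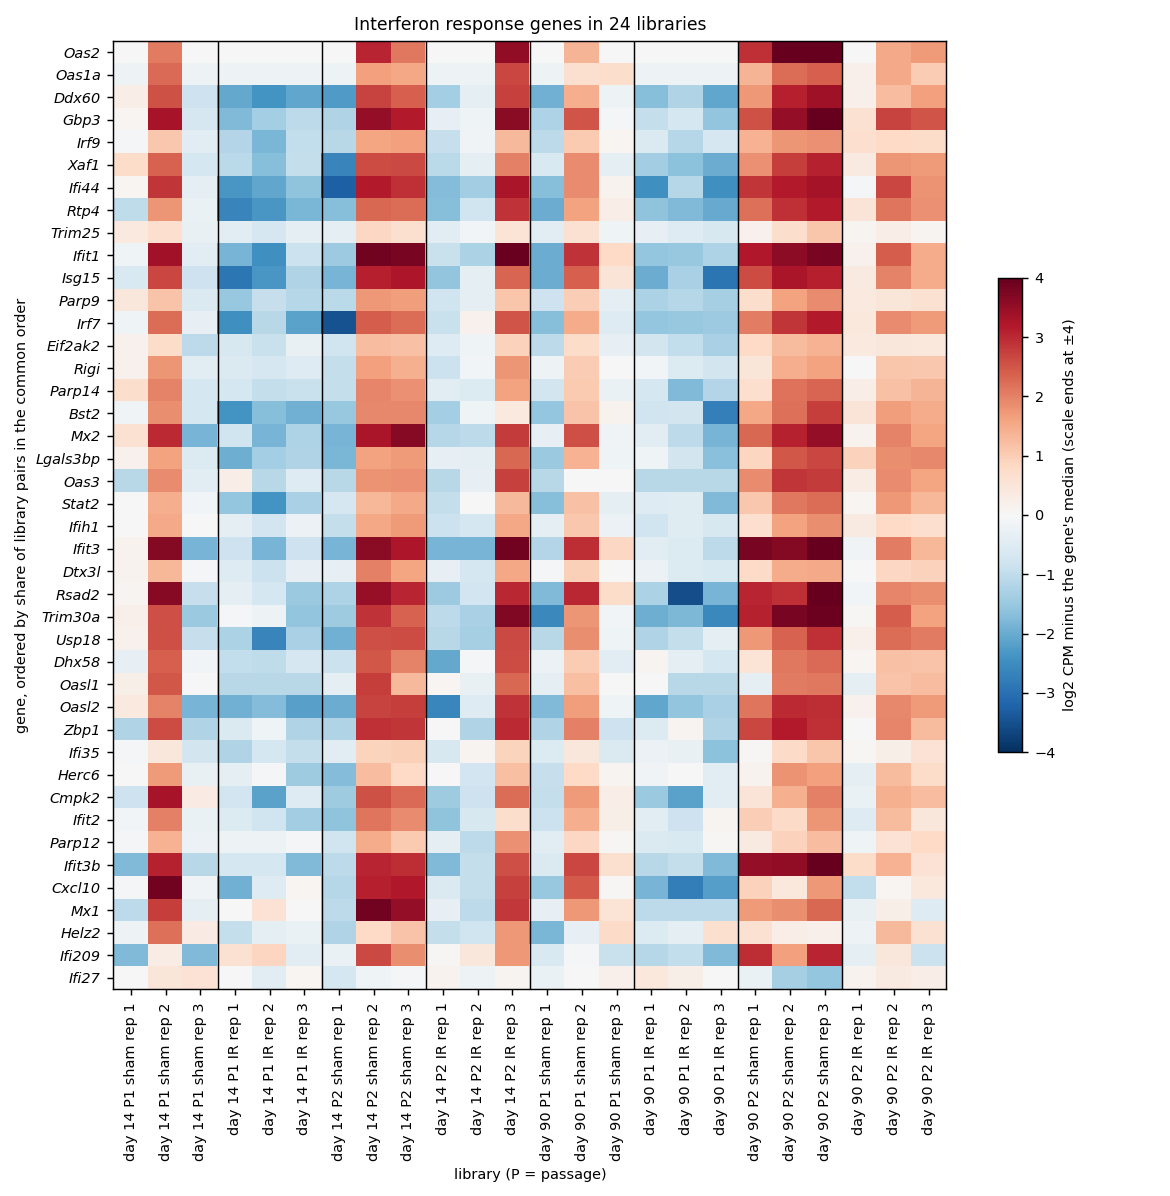
Level of each of 42 genes (rows, ordered from the highest to the lowest share of library pairs in the common order) in each of 24 libraries (columns, 3 per group), as log2 CPM minus the gene's own median over the libraries. Whole columns are red or blue together, with 10 libraries that have 40 or more genes above their median, while the lowest rows, Ifi209 and Ifi27, break the columns.

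**Figure D2:**
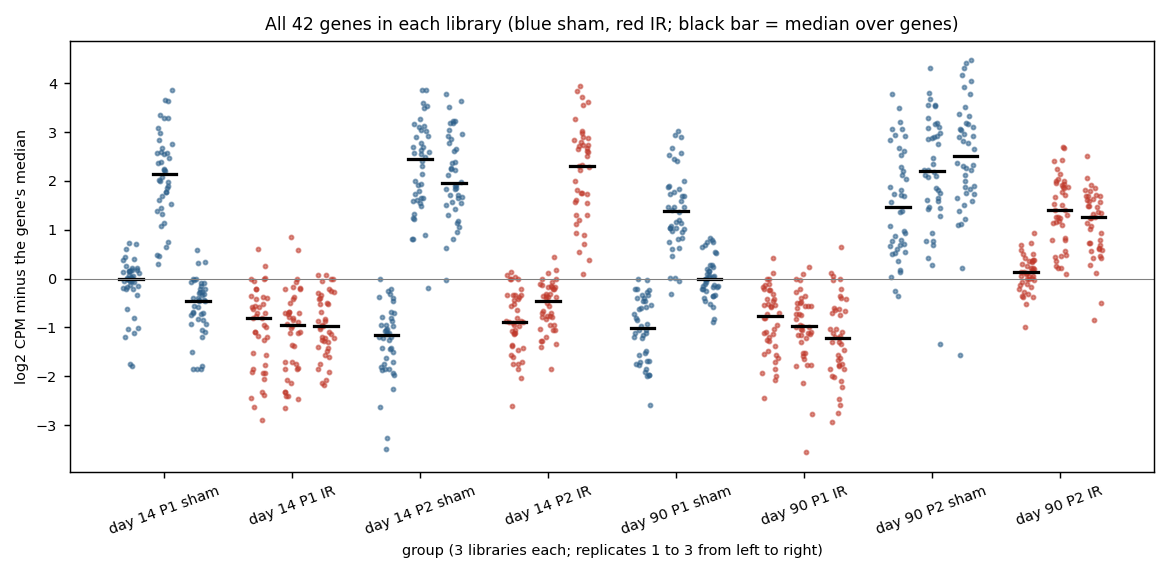
Each point is 1 gene in 1 library, as log2 CPM minus the gene's own median over 24 libraries, with sham in blue, IR in red and a black bar at the median over the 42 genes. Within day 14 passage 2 sham the bars stand at -1.16, 2.45 and 1.95.

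To put a number on how far each member followed the others, all 276 pairs of libraries were compared, and the share was taken in which the member ranked the pair as the mean of the other members did (50% is no relation, ties left out). The pairs share libraries and their depths, so the share is a description with no test. The members were also chosen with earlier results of these data known, so part of their excess over other genes may be built in. The median over the 41 tested members was 88.4%, and 37 of them reached 80%. Over the other 10522 tested genes, set against the mean of all members, the median was 49.3%, and 101 genes (0.960%) reached 80%. The closest followers were Oas2, an enzyme that makes the second messenger of RNase L, at 95.1%, the helicase-like Ddx60 at 94.2%, the guanylate-binding GTPase Gbp3 and the transcription factor Irf9 at 93.5% each, and Xaf1, a pro-apoptotic protein, at 92.8%. Oas2 had no count in 14 libraries, and pairs among these were ties and left out. Its share thus rests on fewer pairs, mostly between libraries with and without a count, and may be raised by that. Members also moved over a wide range. Their span, the highest minus the lowest log2 CPM over the libraries (prior count 2), had a median of 4.65, against 1.46 for the other tested genes. It ran from 1.79 in Trim25, a ubiquitin ligase of the RIG-I pathway, to 7.71 in Rsad2, which encodes the antiviral enzyme viperin.

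**Figure D3:**
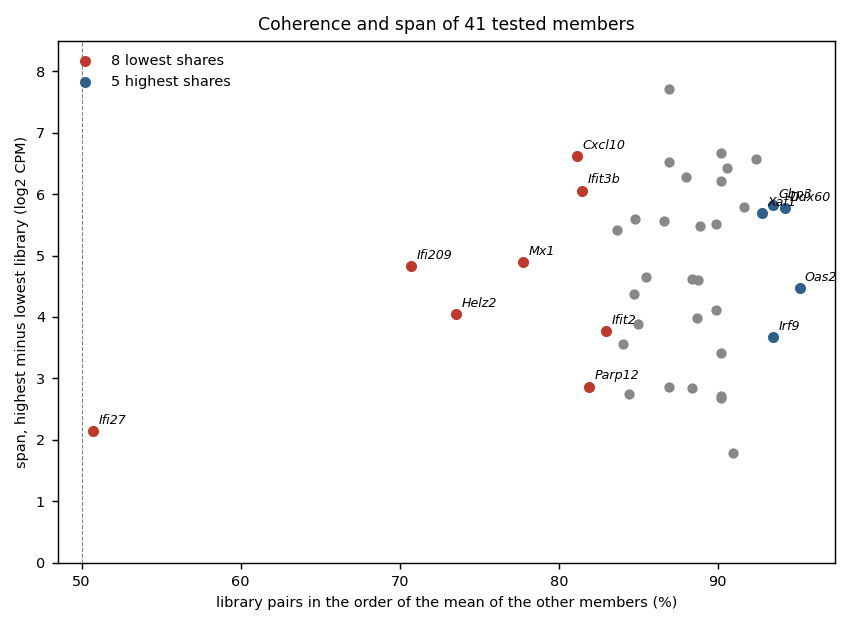
Each point is 1 of 41 tested members, with the share of 276 library pairs in the common order (%) on the x axis and the span over 24 libraries (log2 CPM) on the y axis. Of the members 37 lie at 80% or more, over all spans, and Ifi27 stands alone at 50.7% with a span of 2.15.

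Of the signalling genes, Irf7 encodes the transcription factor that drives the interferon genes themselves and is induced by interferon. At day 14 in passage 1 Irf7 stood at 8.10, 46.6 and 7.19 CPM in sham and 0.962, 3.78 and 1.41 CPM in IR, and in passage 2 at 0, 53.2 and 46.9 CPM in sham and 4.59, 10.6 and 56.8 CPM in IR. At day 90 it stood at 2.26, 27.5 and 6.21 CPM in sham and 2.58, 2.64 and 2.78 CPM in IR in passage 1, and at 41.04, 73.3 and 91.3 CPM in sham and 12.8, 36.8 and 32.04 CPM in IR in passage 2. Every IR library lay below every sham library in day 14 passage 1 and day 90 passage 2, while the groups overlapped in the other strata. Stat2 and Irf9, partners in ISGF3, ran from 2.83 to 91.3 CPM and from 13.2 to 179 CPM. Both were lowest in the day 14 passage 1 IR library 2 and highest in the day 90 passage 2 sham library 3.

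Of the nucleic acid sensors, Ifih1 (MDA5) and Rigi (RIG-I, named Ddx58 in older annotation) recognise viral RNA in the cytoplasm, and Dhx58 (LGP2) tunes both. Ifih1 ran from 16.5 to 124 CPM and Rigi from 21.03 to 143 CPM, both lowest in the day 14 passage 2 sham library 1. Zbp1, a sensor of left-handed nucleic acid that can start necroptosis, had no count in 7 libraries and reached 17.9 CPM in the day 90 passage 2 sham library 2. Ddx60 stood at 10.8, 56.5 and 4.62 CPM in sham and 1.44, 0.945 and 1.41 CPM in IR at day 14 in passage 1, and at 31.8, 82.99 and 101 CPM in sham and 10.4, 22.1 and 29.2 CPM in IR at day 90 in passage 2. In both strata every IR library was below every sham library, yet 1 sham library of day 14 passage 1, at 56.5 CPM, lay well apart from its replicates.

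Among the RNA-binding effectors, Ifit1 binds the ends of foreign RNA and blocks its translation. It stood at 8.10, 104 and 6.67 CPM in sham and 1.92, 0.945 and 4.69 CPM in IR at day 14 in passage 1, and at 2.84, 147 and 140.4 CPM in sham and 4.59, 3.32 and 158 CPM in IR in passage 2. At day 90 it stood at 1.69, 75.3 and 16.8 CPM in sham and 2.58, 2.64 and 3.48 CPM in IR in passage 1, and at 93.2, 120.1 and 140.1 CPM in sham and 10.7, 53.9 and 27.98 CPM in IR in passage 2. A single high library set the level of several groups: sham library 2 at day 14 and at day 90 in passage 1, and IR library 3 at day 14 in passage 2. The paralogs Ifit3 and Ifit3b reached 69.5 and 59.3 CPM in the day 90 passage 2 sham library 3 and were at 0 in 5 and 4 libraries. Reads of the near-identical Ifit3 and Ifit3b may have been split or shared in the counting, so their separate values are uncertain. The Oas genes, also a family of close copies, were low. Oas2 stood at 5.99, 17.02 and 19.2 CPM in sham and 0, 1.67 and 2.03 CPM in IR at day 90 in passage 2, and at 0 in all 6 IR libraries of passage 1. Eif2ak2 (PKR), the kinase that stops translation on double-stranded RNA, had a narrower range, from 13.2 to 90.1 CPM.

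Isg15 encodes the ubiquitin-like protein that is attached to other proteins during the response. At day 14 it stood at 17.6, 179 and 14.9 CPM in sham and 2.89, 4.72 and 11.3 CPM in IR in passage 1, and at 6.82, 243 and 263 CPM in sham and 8.60, 21.2 and 140.5 CPM in IR in passage 2. At day 90 it stood at 6.21, 148 and 39.6 CPM in sham and 6.19, 10.6 and 2.78 CPM in IR in passage 1, and at 171, 274 and 242 CPM in sham and 35.1, 112 and 77.5 CPM in IR in passage 2. Isg15 thus differed between replicates of day 14 passage 2 sham from 6.82 to 263 CPM, while the 3 sham libraries of day 90 passage 2 lay between 171 and 274 CPM. Usp18, the protease that removes ISG15 and damps the receptor, ran from 0 to 42.1 CPM. The partners Dtx3l and Parp9, a ubiquitin ligase and an ADP-ribosyltransferase of 1 complex, ran from 19.8 to 149 CPM and from 25.005 to 276 CPM. Parp12 and Parp14, further ADP-ribosyltransferases, ran from 7.96 to 63.7 CPM and from 6.61 to 129 CPM.

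Of the membrane effectors, Bst2 encodes tetherin, which holds budding virus at the cell surface. At day 14 it stood at 46.6, 189 and 31.3 CPM in sham and 9.14, 15.1 and 13.1 CPM in IR in passage 1, and at 17.6, 197 and 198 CPM in sham and 19.5, 45.8 and 67.7 CPM in IR in passage 2. At day 90 it stood at 16.9, 115 and 57.4 CPM in sham and 29.4, 31.1 and 6.96 CPM in IR in passage 1, and at 154, 244 and 361 CPM in sham and 74.1, 168 and 146 CPM in IR in passage 2. In the day 14 passage 2 IR library 3, where Ifit1 was at its highest, Bst2 was at 67.7 CPM, a difference of -1.85 on the log2 scale from where the mean of the other members placed it. Rsad2 ran from 0.661 CPM in the day 90 passage 1 IR library 2 to 328 CPM in the day 90 passage 2 sham library 3. The antiviral GTPases Mx1 and Mx2 had no count in 6 and 4 libraries. Laboratory strains such as C57BL/6 are known to carry a defective Mx1 gene, and what part this plays in the Mx1 counts was not tested. Trim30a, a regulator of inflammatory signalling with close neighbours of the same family, ran from 0 to 82.3 CPM, and its counts may share reads with those copies.

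In the last group, Ifi44, an interferon-induced protein of the cytoplasm, ran from 2.84 to 357 CPM, and Lgals3bp, a secreted galectin ligand, from 6.73 to 184 CPM. Cxcl10, the chemokine that draws T cells through CXCR3, stood at 9.45, 154 and 8.73 CPM in sham and 1.92, 6.61 and 10.3 CPM in IR at day 14 in passage 1, and at 3.98, 92.1 and 96.9 CPM in sham and 6.31, 4.65 and 69.9 CPM in IR in passage 2. At day 90 it stood at 2.82, 57.4 and 10.1 CPM in sham and 2.06, 0.661 and 1.39 CPM in IR in passage 1, and at 19.5, 13.4 and 34.6 CPM in sham and 4.46, 10.4 and 13.4 CPM in IR in passage 2. Its highest library was the day 14 passage 1 sham library 2, not one of day 90 passage 2, where most members peaked.

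The 8 members that followed the common order least were Ifi27 at 50.7%, Ifi209 at 70.7%, Helz2 at 73.6%, Mx1 at 77.8%, Cxcl10 at 81.2%, Ifit3b at 81.5%, Parp12 at 81.9% and Ifit2 at 83.0%. Ifit2, the last of the 8, was close to the next tested member, Cmpk2, at 83.6%. Ifi27, which encodes a small mitochondrial protein, had a share near 50% and a span of 2.15. At day 14 it stood at 37.8, 54.1 and 58.00 CPM in sham and 37.99, 28.3 and 40.3 CPM in IR in passage 1, and at 23.3, 33.7 and 37.5 CPM in sham and 42.4, 33.2 and 41.3 CPM in IR in passage 2. At day 90 it stood at 31.6, 38.7 and 44.2 CPM in sham and 52.1, 45.6 and 37.6 CPM in IR in passage 1, and at 32.05, 14.6 and 12.4 CPM in sham and 41.97, 49.7 and 46.6 CPM in IR in passage 2. Its lowest values, 14.6 and 12.4 CPM, were in the sham libraries 2 and 3 of day 90 passage 2, in which 41 of the 42 members were above their median. Ifi209 belongs to the HIN-200 family of DNA-binding proteins, whose close copies may share reads. It stood at 0, 2.91 and 0 CPM in sham and 3.85, 4.72 and 1.41 CPM in IR at day 14 in passage 1, where the IR libraries were not the low ones, and at 23.1, 8.82 and 24.8 CPM in sham and 1.49, 3.34 and 0.811 CPM in IR at day 90 in passage 2, where every sham library was above every IR library. Helz2, a helicase and nuclear receptor coactivator, was highest in the day 14 passage 1 sham library 2 at 32.6 CPM and stood at 10.2, 7.90 and 7.51 CPM in sham and 5.36, 17.1 and 10.1 CPM in IR at day 90 in passage 2, where the groups overlapped.

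Some departures went with the day or the passage. The difference between a member and the mean of the others, both as log2 CPM centred over the libraries, was positive for Cxcl10 in 10 of 12 libraries of day 14 (median 0.494) and in 2 of 12 of day 90 (median -0.892). In day 90 passage 2 it was negative in all 6 libraries, from -1.81 to -0.622. The difference of Mx1 was positive in 10 of 12 libraries of day 14 (median 0.658) and in 5 of 12 of day 90 (median -0.103), with 4 of 6 in passage 1 and 1 of 6 in passage 2. Ifit2, a paralog of Ifit1, lay below the others in all 12 libraries of passage 2, down to -1.51 in the day 14 passage 2 IR library 3, and above them in all 6 of day 90 passage 1. Trim30a went the other way in day 90 passage 2, with a median of 1.26 and 5 of 6 libraries positive. So did others, among them Gbp3 (median 1.36, 6 of 6) and Ifit1 (median 1.19, 6 of 6). The differences were not scaled by span. In high libraries members with a wide span thus tend to lie above the others, and those with a narrow span below. These differences were noticed in the data and have no test of their own. The tests of the mean day effect for Cxcl10 and Mx1 are given with that comparison.

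**Figure D4:**
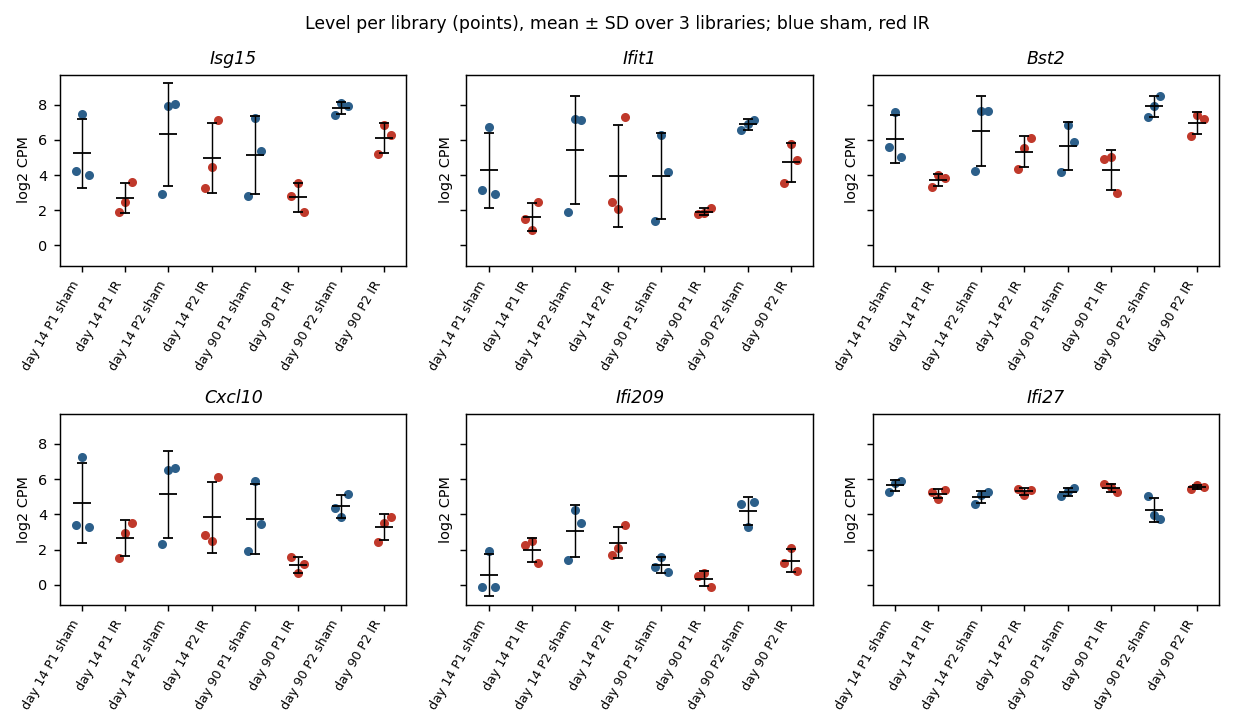
Level of 6 members as log2 CPM per library (points), with the mean and SD over 3 libraries in black, sham in blue and IR in red. Isg15, Ifit1, Bst2 and Cxcl10 spread widely within most groups, Ifi209 is high in day 90 passage 2 sham, and Ifi27 stays within a span of 2.15 over all libraries.

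The first comparison asked whether organoids from irradiated glands differed from sham in each day and passage. In day 14 passage 1, 40 of 41 members had a negative log2 fold change, with a median log2 fold change of -2.72, or -2.40 with the members at 0 in the IR group, Oas2 and Oasl1, set at their bound. The median of all tested genes was -0.01. No member passed edgeR's quasi-likelihood test at an adjusted p of 0.05 (28 members had an unadjusted p under 0.05, and DESeq2 called 0), where 0.0473% of all tested genes were called lower and 0.293% higher. Bst2 had the smallest p among the negative values (-2.87, SE 0.86, edgeR adjusted p = 0.168), and Ifi209 was the member with a positive value (1.62, SE 1.10, edgeR adjusted p = 0.662). Isg15 was at -3.42 (SE 1.32), Ifit1 at -3.80 (SE 1.65), Irf7 at -3.53 (SE 1.37), Cxcl10 at -3.18 (SE 1.26) and Lgals3bp at -2.27 (SE 0.95), with edgeR adjusted p from 0.322 to 0.395. In 22 of 41 members every IR library was below every sham library, against 8.4% of all tested genes, and in none was every IR library above, against 8.84%. Without the sham library 2, Isg15 was at -1.29 and Cxcl10 at -0.53.

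In day 14 passage 2 the groups overlapped for every member. The median log2 fold change was -0.60, with 35 of 41 members negative, and edgeR called none (2 at an unadjusted p under 0.05, DESeq2 0), with 0.0% of all genes called lower and 0.0189% higher. No member had its IR libraries all below sham, against 5.49% of all genes, or all above, against 6.06%. Bst2 again had the smallest p (-1.61, SE 0.73, edgeR adjusted p = 0.722), and Ifi27 the smallest among positive values (0.31, SE 0.27, edgeR adjusted p = 0.878). Isg15 was at -1.53 (SE 1.00), Cxcl10 at -1.16 (SE 1.01), Ifit1 at -0.74 (SE 1.07), Irf7 at -0.39 (SE 0.86) and Lgals3bp at 0.01 (SE 0.75), with edgeR adjusted p from 0.830 to 0.999. Each group held both high and low libraries. Without the IR library 3, the high one, Isg15 moved to -3.54 and Ifit1 to -4.59, and edgeR still called 0 members. At the other end of leaving out 1 library, Isg15 stood at -1.04 and Ifit1 at -0.22.

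In day 90 passage 1 the median log2 fold change was -1.99, or -1.56 with the members at 0 in the IR group (Oas2, Oas3 and Mx1) at their bound, and 40 of 41 members were negative. No member was called by edgeR (8 at an unadjusted p under 0.05, DESeq2 0), where 0.0189% of all tested genes were called lower and 0.0284% higher. In 9 members every IR library was below every sham library, against 10.3% of all genes, and in none was every IR library above, against 9.21%. Isg15 had the smallest p (-3.32, SE 1.31, edgeR adjusted p = 0.282), and Ifi27 was the positive member (0.23, SE 0.27, edgeR adjusted p = 0.755). Cxcl10 was at -4.02 (SE 1.69), Ifit1 at -3.46 (SE 1.66), Irf7 at -2.19 (SE 1.31), Bst2 at -1.49 (SE 0.78) and Lgals3bp at -1.14 (SE 0.86), with edgeR adjusted p from 0.308 to 0.609. All 3 IR libraries were low, while sham ran from no member above its median to 40.

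In day 90 passage 2 the only members called were the ones that followed the common order least. Ifi27 was higher in IR (1.21, SE 0.27, edgeR adjusted p = 0.0103), with every IR library above every sham library, from 41.97 to 49.7 CPM against 12.4 to 32.05 CPM. Ifi209 was lower (-3.31, SE 0.71, edgeR adjusted p = 0.00915), from 0.811 to 3.34 CPM against 8.82 to 24.8 CPM. DESeq2 called the same 2. Among all tested genes 2.97% were called higher and 1.95% lower. The median over the members was -1.06, with 39 of 41 negative and 7 at an unadjusted p under 0.05. In 21 members every IR library was below every sham library, against 9.64% of all genes, and in 1, Ifi27, every IR library was above, against 10.9%. Ifit1 was at -1.95 (SE 1.11), Isg15 at -1.62 (SE 0.98), Irf7 at -1.35 (SE 0.82), Cxcl10 at -1.27 (SE 1.14), Bst2 at -0.97 (SE 0.68) and Lgals3bp at -0.56 (SE 0.73), with edgeR adjusted p from 0.377 to 0.754. The call of Ifi209 was lost in 2 of 15 alternatives (edgeR adjusted p up to 0.0704) and that of Ifi27 in 3 of 15 (up to 0.137). Without the sham library 3, the IR library 2 or the IR library 3, 1 of these 2 members was called.

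**Figure D5:**
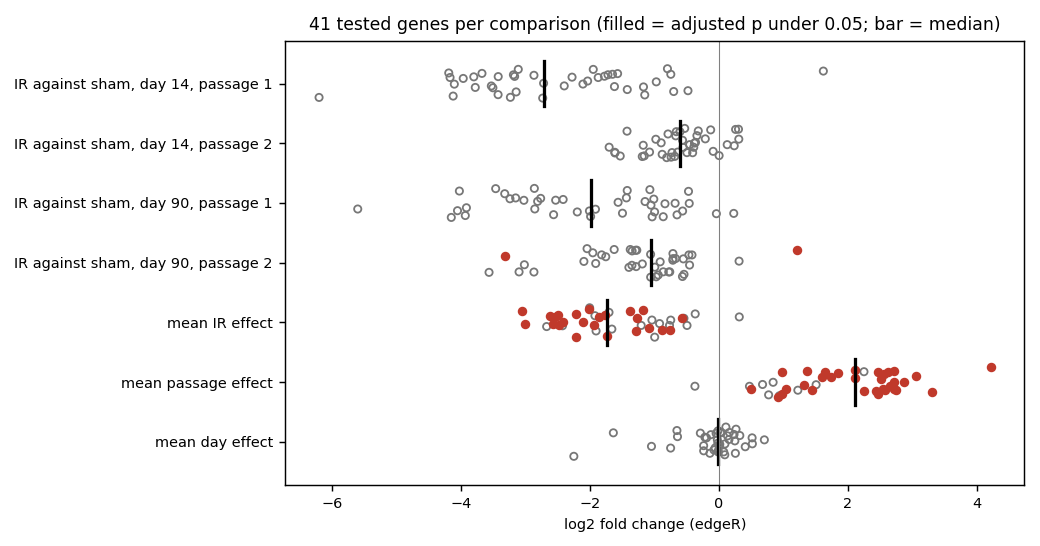
Each point is the log2 fold change (edgeR) of 1 of 41 tested members in the comparison on the y axis, filled where the adjusted p was under 0.05, with a black bar at the median. The 4 IR comparisons lie mostly below 0 with 2 filled points in all, the mean IR effect has 24 filled points below 0, the mean passage effect 32 above 0, and the mean day effect centres on -0.01.

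Averaged over the 4 day and passage strata, 24 of 41 members were lower in IR and none higher by edgeR, and DESeq2 called 26 lower, the 24 among them. Of all tested genes 4.91% were called lower and 6.09% higher. The median over the members was -1.73, with 40 of 41 negative, against 0.00 over all genes. All 3 signalling genes fell: Irf9 (-1.09, SE 0.29), Stat2 (-1.17, SE 0.35) and Irf7 (-1.86, SE 0.56, edgeR adjusted p = 0.0347). Of the 5 sensors Ddx60 alone passed (-2.22, SE 0.61). Of 9 RNA-binding effectors 6 fell, among them Ifit3b (-3.05, SE 0.73) and Ifit1 (-2.49, SE 0.70, edgeR adjusted p = 0.0249). Of 8 conjugation genes 5 fell, among them Isg15 (-2.47, SE 0.58, edgeR adjusted p = 0.00912) and Parp9 (-1.28, SE 0.29, edgeR adjusted p = 0.00770). Of 8 membrane and nucleotide effectors 6 fell, led by Bst2 (-1.73, SE 0.38, edgeR adjusted p = 0.00591) and Rsad2 (-2.54, SE 0.65). Of the 8 other genes 3 fell, Xaf1 (-2.01, SE 0.53), Cxcl10 (-2.41, SE 0.65, edgeR adjusted p = 0.0196) and Ifi44 (-2.11, SE 0.63). Lgals3bp was at -0.99 (SE 0.42, edgeR adjusted p = 0.129) and Ifi27 at 0.32 (SE 0.13, edgeR adjusted p = 0.131).

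The count behind the mean IR effect depended on single libraries and on 1 covariate. The fit also took all 24 libraries as independent. Passage 2 organoids are grown from passage 1 cells, so the p-values of this effect may be too small. Leaving out 1 library in turn gave 5 to 37 members lower. It fell to 5 without sham library 2 of day 14 passage 1, to 6 without sham library 2 of day 90 passage 1, to 11 and 10 without sham libraries 2 and 3 of day 14 passage 2, and to 12 without sham library 3 of day 90 passage 2. Among IR libraries it fell to 14 and 15 without libraries 1 and 2 of day 14 passage 1, to 14 and 13 without libraries 2 and 3 of day 90 passage 1, and it rose to 37 without library 3 of day 14 passage 2. Both passage 1 sham libraries named 2 had the highest leukocyte sum of their group, 12.8 CPM at day 14 and 21.5 CPM at day 90. In IR libraries of passage 1 the sums were 4.12 to 55.8 CPM, with 2 or 3 members above their median. In passage 2 they were 0.406 to 7.3 CPM, with 0 to 42 members above. What part leukocytes play in these counts of called members was not tested. Isg15, Bst2, Parp9 and Irf9 kept their call without each single library. Gm42418, a predicted gene that overlaps ribosomal RNA sequence, took 11.8% to 29.0% of a library's counts. With its share as a covariate edgeR called 0 members lower, and Isg15 stood at -1.66, Bst2 at -1.31 and Ifit1 at -1.54. The share ran from 26.9% to 29.0% in IR and from 11.8% to 28.6% in sham of day 90 passage 1, and from 13.5% to 24.3% in IR and from 13.1% to 15.5% in sham of day 90 passage 2. At day 14 IR and sham stood at 21.7% to 24.5% and 22.7% to 25.9% in passage 1. In passage 2 they stood at 17.2% to 27.4% and 22.6% to 28.4%. The ranges overlapped in each of the 4 strata, but the mean was higher in IR at day 90. It was 27.6% against 18.8% in sham in passage 1 and 20.3% against 14.3% in passage 2. At day 14 it was lower in IR, at 23.3% against 24.8% and 23.7% against 25.5%. The level of Gm42418 ranked 29.3% of the library pairs as the members did, against a median of 49.3% over tested genes outside the members. It thus ordered most pairs opposite to the members. What part the Gm42418 share of counts plays in the members' levels was not tested beyond that fit.

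In passage 2, averaged over day and treatment, 32 of 41 members were higher than in passage 1 and none lower, with DESeq2 calling 29, all among the 32. Of all tested genes 5.24% were called higher and 6.43% lower. The median over the members was 2.11, with 40 of 41 positive. All 3 signalling genes rose, Irf7 by 2.58 (SE 0.55, edgeR adjusted p = 0.00358), Stat2 by 1.60 (SE 0.35) and Irf9 by 1.36 (SE 0.29). Of the sensors 4 of 5 rose, among them Ddx60 by 2.65 (SE 0.60), while Rigi at 0.94 (SE 0.32) did not pass. Of the RNA-binding effectors 8 of 9 rose, with Ifit1 at 2.72 (SE 0.70, edgeR adjusted p = 0.0140) and Oasl2 at 2.72 (SE 0.60), and Ifit2 at 0.77 (SE 0.41) was the exception. Of the conjugation genes 6 of 8 rose, with Isg15 at 2.44 (SE 0.58, edgeR adjusted p = 0.00859), and Herc6 and Parp12 did not pass. Of the membrane and nucleotide effectors 6 of 8 rose, with Rtp4, a receptor transporter protein with antiviral activity, at 2.72 (SE 0.54) and Bst2 at 1.75 (SE 0.38, edgeR adjusted p = 0.00442). Of the other genes 5 of 8 rose, with Ifi209 at 2.48 (SE 0.49, edgeR adjusted p = 0.00190) and Lgals3bp at 1.85 (SE 0.42, edgeR adjusted p = 0.00530). Cxcl10 at 1.23 (SE 0.68, edgeR adjusted p = 0.267), Helz2 at 0.48 (SE 0.39) and Ifi27 at -0.37 (SE 0.13, edgeR adjusted p = 0.0779) did not pass. Without IR library 3 of day 14 passage 2 the count was 13, and with the Gm42418 share as a covariate it was 17. Irf7, Isg15, Bst2, Lgals3bp and Ifi209 kept their call in all 32 alternatives. The fit took passage 1 and passage 2 libraries as independent, although passage 2 organoids are grown from passage 1 cells. The p-values of the passage effect do not account for that.

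Day 90 against day 14, averaged over passage and treatment, called no member by edgeR (2 at an unadjusted p under 0.05, DESeq2 0), where 2.43% of all tested genes were called higher and 2.38% lower. The median over the members was -0.01, with 20 positive and 21 negative. The member with the smallest p was Cxcl10 (-1.63, SE 0.68, edgeR adjusted p = 0.172). Mx1, which had a group at 0, had an edgeR adjusted p of 0.203. Bst2 had the smallest p among positive values (0.71, SE 0.38, edgeR adjusted p = 0.304). Lgals3bp was at 0.52 (SE 0.42), Irf7 at 0.24 (SE 0.61), Isg15 at 0.16 (SE 0.60) and Ifit1 at -0.23 (SE 0.78), with edgeR adjusted p from 0.521 to 0.922.

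Whether the IR difference itself changed with day or passage was tested with 4 interaction terms. None called a member by edgeR or DESeq2, with 0, 3, 0 and 1 members at an unadjusted p under 0.05 for day in passage 1, day in passage 2, passage at day 14 and passage at day 90. Of all genes edgeR called 2 lower (0.0189%) for day in passage 1, 1 lower (0.00947%) for day in passage 2, and 0 for passage at either day. Ifi27 had the smallest p among positive terms in 3 of the 4, at 0.71 (SE 0.38), 0.91 (SE 0.38) and 0.98 (SE 0.38), with edgeR adjusted p from 0.672 to 1.00. Ifi209 had the smallest among negative terms in each, for example -2.42 (SE 1.00, edgeR adjusted p = 0.859) for day in passage 2. For passage at day 14 the smallest positive p was that of Oasl1, which had no count in 1 group, with an edgeR adjusted p of 0.728. Bst2 was at 1.37, 0.64, 1.25 and 0.52 (SE 1.17, 0.99, 1.12 and 1.03) and Isg15 at 0.10, -0.09, 1.89 and 1.70 (SE 1.99, 1.38, 1.67 and 1.66). Irf7 was at 1.33, -0.96, 3.14 and 0.85 (SE 2.14, 1.18, 1.67 and 1.58) and Ifit1 at 0.34, -1.22, 3.06 and 1.51 (SE 2.72, 1.53, 2.03 and 2.10). Lgals3bp was at 1.13, -0.57, 2.28 and 0.58 (SE 1.29, 1.05, 1.22 and 1.13) and Cxcl10 at -0.84, -0.12, 2.03 and 2.75 (SE 2.36, 1.48, 1.63 and 2.19). These 6 had edgeR adjusted p of 0.769 or more, and with SE of 1 to 3 a sizeable interaction would not have been detectable.

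The rest of the pathway was read from lists of its parts, against 4.91% of all tested genes called lower and 6.09% higher in the mean IR effect, and 5.24% called higher and 6.43% lower in passage 2. Of 21 interferon genes, Ifnb1 and Ifnz had 1 count each over all 24 libraries and the other 19 had none, so no ligand was tested. In a single library a count of 0 allows a level of up to 0.772 to 2.82 CPM, depending on the library (3 counts of its TMM-scaled total, counting error only). Ligand transcripts were thus hardly detected, and a low level in a single library could have been missed. Among the receptor and proximal signalling genes, Jak1 was lower with IR in the mean IR effect (-0.27, SE 0.06, edgeR adjusted p = 0.00859), while Ifngr2, a chain of the interferon gamma receptor, was higher (0.37, SE 0.12), as was Il10rb, a chain shared by the type III interferon receptor (0.38, SE 0.12). The call of Jak1 was lost in 1 of 32 alternatives, that of Ifngr2 in 17 and that of Il10rb in 18. Ifnar1 and Ifnar2 were at 0.28 (SE 0.18) and -0.13 (SE 0.11) and did not pass. Of 11 tested sensors and adaptors upstream of interferon, Tlr3, the endosomal receptor for double-stranded RNA, was higher with IR (0.76, SE 0.15, edgeR adjusted p = 0.00263) and lower in passage 2 (-0.74, SE 0.15, edgeR adjusted p = 0.00238), opposite in sign to most members. Cgas (-0.69, SE 0.22) and Sting1 (-0.52, SE 0.17), the DNA sensing pair, were lower with IR at edgeR adjusted p of 0.0479 and 0.0493, close to the threshold, and their calls were lost in 18 and 21 of 32 alternatives (adjusted p up to 0.120 and 0.201). Of 46 tested further induced genes 17 were lower with IR and none higher, among them Ifitm3 (-0.80, SE 0.15), Ifitm2 (-0.68, SE 0.14) and the peptide transporter Tap1 (-1.56, SE 0.31), and 33 were higher in passage 2. With the Gm42418 share as a covariate 3 were lower with IR and 11 higher in passage 2, and Ifitm3, Ifitm2 and Tap1 kept their IR calls in all 32 alternatives. Leaving out 1 library gave 7 (without sham library 2 of day 14 passage 1) to 35 (without IR library 3 of day 14 passage 2) lower with IR, and 8 (without that IR library) to 36 higher in passage 2. Of 10 tested MHC class I genes 1, the immunoproteasome subunit Psmb10, was lower with IR (-0.86, SE 0.24), and 6 were higher in passage 2, among them H2-Q7 (2.65, SE 0.64) and B2m (1.17, SE 0.29). With the covariate these counts were 0 and 1, and on leaving out 1 library 1 to 6 and 2 to 7. Without IR library 3 of day 14 passage 2 they were 6 and 2, and H2-Q7 lost its call (edgeR adjusted p = 0.407).

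Of the tested genes outside the 42, those whose order of libraries was most like that of the members included Sp100 at 93.1% of pairs, Lgals9 at 92.4%, Ifi47 at 92.2%, Iigp1 at 92.1%, Acadl at 91.3%, Ifi203 at 90.6%, Samd9l at 90.2%, Phf11d at 89.9% and Tap1 at 89.5% (mean of at least 5 CPM, over 24 libraries). Of these, all but Lgals9 and Acadl were on the lists of the pathway. Acadl encodes a mitochondrial long-chain acyl-CoA dehydrogenase, and its span of 2.15 was below the members' median of 4.65.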

How the data were processed

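RNA of 24 organoid libraries was read with the QuantSeq 3′ kit, per the labels' protocols, so a count does not grow with transcript length. The values the authors deposited are unnormalized read counts of genes under Ensembl identifiers, 1 file per library. Of the processing, bcl2fastq and the build GRCm39 are named, per the submitters' processing notes. The aligner, counter, annotation and strand setting were not given in the sources used here. Each file held 47643 genes and 5 lines that name no gene, which were left out (no-feature reads made up 11.5% to 26.5%). Symbols were taken by identifier from GENCODE, for names only, and 47224 identifiers matched, the others holding 0.01% of counts. Depth was 1151608 to 3189466 counts per library, and intervals of depth cover counting error only. Promoters came from RefSeq on GRCm38.p6, an older build than that of the files, matched by symbol.

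Counts were tested with edgeR 4.0.16 in R 4.3.3 (quasi-likelihood test, TMM factors, filterByExpr on the 8 groups, all 24 libraries), over 10563 genes, with Benjamini-Hochberg adjustment over all of them, two-sided, at 0.05, in 11 comparisons. The SE was derived from the F statistic as the absolute log2 fold change divided by its root. Log2 CPM used a prior count of 2, and a bound for a group at 0 used 3 counts over the group. The steps were tested on simulated data. Alternatives were DESeq2 1.42.0, other scaling, other filters, fewer groups, a replicate block, ribosomal RNA genes left out, the Gm42418 share as a covariate and each library left out. They were run for the count of called members in all comparisons, and for single members where statistics were given by rule in the IR comparisons and for all tested members in the mean IR and mean passage effects. After the data were seen they were added for pathway lists and named genes outside the members in these 2 effects, and for Irf1 by day. Statistics are given in each comparison for Irf7, Isg15, Ifit1, Bst2, Lgals3bp and Cxcl10, for called members and, where none was called, for the smallest p in each direction. Where many members were called, examples stand for the rest. The members and lists were chosen with earlier results of these data known. Replicates differed by more than sampling noise (chi-square per degree of freedom 2.20 to 29.5). Some genes of the pathway and marker lists are not reported here.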

Additional observations from a re-analysis of the deposited data

How the results depend on the processing

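Counts of called members stayed within 1.5 times of the reported ones under DESeq2, other scaling factors, the stricter filter and the removal of ribosomal RNA genes. The median share of library pairs in the common order was 88.0% to 89.1% under other scalings and prior counts, and the 8 least coherent members shared 6 to 8 names with those reported. With no filter on low counts edgeR called 33, 10, 28 and 28 members for IR at day 14 passage 1, day 14 passage 2, day 90 passage 1 and day 90 passage 2, 40 for the mean IR effect, 6 for the mean day effect and 1, 6, 19 and 5 for the interactions. That fit estimated an infinite prior degree of freedom (6.11 with the filter) and so set aside each gene's own spread. The members' median quasi-dispersion was 7.89, and 0.78 was used in its place. Fitted on the compared groups only, 1 member was called at day 14 passage 1 and 5 at day 90 passage 2, and the cause was not tested. With the Gm42418 share as a covariate 1 was called at day 90 passage 2, 0 for the mean IR effect and 17 for the mean passage effect, and the cause was not tested.

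Same-numbered IR and sham libraries had correlations of -0.197 to 0.377 in their deviations from the group means, 6 of 12 above 0.1, and 10 of 24 libraries correlated best with their own number. Same-numbered libraries of passages 1 and 2 had -0.176 to 0.398, with 6 of 12 above 0.1. Not every pair was above 0.1 in either case, so the numbers were not taken to pair the samples. With 3 libraries per group these correlations cannot exclude pairing. With the replicate number as a block 4 members were called at day 90 passage 2, 27 for the mean IR effect and 32 for the mean passage effect.

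Leaving out 1 library in turn gave 1 to 2 members at day 90 passage 2, 5 to 37 for the mean IR effect and 13 to 36 for the mean passage effect, and 87.4% to 88.9% for the median share. Signs reversed for uncalled members only. Lgals3bp for IR at day 14 passage 2, at 0.01, went to -0.0232 with DESeq2, to -0.54 with the covariate, and from -1.53 to 0.43 on leaving out 1 library. Irf7 there ran from -2.16 to 0.0711. With the covariate Lgals3bp was at 0.45 for day 90 passage 1, and Isg15, Ifit1, Lgals3bp and Cxcl10 were at 0.22, 0.38, 0.64 and 0.38 for day 90 passage 2. In the mean IR effect Helz2 went to 0.19 with the covariate, and Ifi209 ran from -1.27 to 0.0137 on leaving out 1 library. With 1.06 to 3.89 counts per CPM, values of 1 CPM or less rest on a few reads, which limits Oas1a, Oas2, Oas3, Oasl1, Mx1 and Zbp1, with medians of 0 to 1.17 CPM.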

Other observations

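Ifi27l2a, a gene of the same family as Ifi27, was looked at after the values of Ifi27 had been seen. It ran from 0 to 222 CPM with a median of 5.23 CPM, and it ranked 87.3% of the library pairs as the members did, against 50.7% for Ifi27. Its mean passage effect was 4.32 (SE 0.75, edgeR adjusted p = 0.0006; 0.151 without IR library 3 of day 14 passage 2), and its mean IR effect was -2.22 (SE 0.82, edgeR adjusted p = 0.0845). Ifi27l2b, a further copy, had 4 counts over all libraries. Lgals9 and Acadl were picked because they ordered these same libraries much as the members did. The direction of their tests was thus largely set by that choice. Lgals9, a galectin, was lower in the mean IR effect (-1.86, SE 0.40, edgeR adjusted p = 0.0052) and higher in passage 2 (1.82, SE 0.40, edgeR adjusted p = 0.0048). Acadl, which takes part in fatty acid oxidation, was lower with IR (-0.49, SE 0.15, edgeR adjusted p = 0.0366) and higher in passage 2 (0.80, SE 0.15, edgeR adjusted p = 0.0012), and its IR call was lost in 15 of 32 alternatives (edgeR adjusted p up to 0.196). Irf1, a transcription factor downstream of both interferon types, was lower at day 90 than at day 14 (-0.91, SE 0.16, edgeR adjusted p = 0.00241). It was the 1 of 46 tested further induced genes called for day, where 2.38% of all tested genes were lower. It ranked 59.1% of the library pairs as the members did. Of 12 receptor and signalling genes 1 was higher at day 90, as was 1 of 11 sensors and adaptors, against 2.43% of all tested genes. No tested member was called for day.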
